A study of Mus musculus with 2 samples.

Results

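The 9 genes described here make up the switch that holds back or frees RNA polymerase II soon after it starts on a gene. They are Rn7sk, which encodes the 7SK RNA; Larp7, Mepce and Hexim1, whose proteins bind that RNA; Cdk9, Ccnt1 and Ccnt2, which encode the kinase P-TEFb; and Nelfb and Supt5, which encode parts of the complexes that hold the polymerase. They were chosen by gene symbol, and all 9 were found among 55536 annotated genes. Their levels were measured by total RNA sequencing after depletion of ribosomal RNA, on RNA from a nuclear fraction of mouse macrophages. These were primary cells of the strain C57BL/6J that had been derived from bone marrow.

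The series holds 1 group of 2 libraries. The macrophages received Lipid A at 100 ng/ml for 12 hours. Lipid A is the portion of endotoxin sensed by the receptor TLR4. After 12 hours without it they were stimulated again at 100 ng/ml for 60 minutes. Age and sex of the animals were not collected, and no other treatment, allele or transgene is named. Both libraries are labelled as biological replicates but carry the same donor identifier. No label tells whether separate animals were used, so their spread may be technical. Replicate 1 was made from 1 µg of RNA and replicate 2 from 500 ng. One label field calls the fraction nuclear and another nucleoplasmic, so the compartment behind the levels is not certain. Unstimulated cells and cells stimulated once were not analysed here, so no value measures a response to Lipid A and no test between conditions exists.

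RNA polymerase II pauses a short way into most genes, held by the complexes NELF and DSIF. P-TEFb, made of the kinase CDK9 and cyclin T1 or T2, phosphorylates both complexes and the polymerase and lets it go on. Much of the P-TEFb of a cell is kept inactive on the 7SK RNA, a short nuclear RNA made by RNA polymerase III, where HEXIM1 blocks the kinase. MEPCE caps the RNA at its start and LARP7 holds its end. In macrophages many inflammatory genes are known to depend on P-TEFb for their induction.

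Replicate 1 held 23630328 expected counts on genes and replicate 2 held 15687634. An expected count is an estimated number of reads after ambiguous reads have been divided among transcripts. Levels are TPM of the authors' gene tables, the first quantifier, unless stated. TPM is a share of all transcripts that is corrected for length so that genes can be compared. All 8 macrophage markers examined reached 1 TPM in both libraries, with a summed level of 4230 TPM in replicate 1 and 2593 in replicate 2, and the lysozyme gene Lyz2 was highest. None of 7 neutrophil markers, 6 lymphoid markers, 5 stromal and endothelial markers or 5 erythroid and mast cell markers reached 1 TPM in both. The highest summed level of any of these 4 lists was 2.07 TPM in replicate 1 and 1.1 in replicate 2. The nuclear RNA Malat1 had 20270 TPM in replicate 1 and 18930 in replicate 2. In bulk libraries such as these, fewer cells of a type and less RNA per cell cannot be told apart.

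The start and the end of the 7SK RNA are shown because its protein partners bind there. Rn7sk (ENSMUSG00000065037.1) is a gene of 1 exon and 331 bases on the minus strand of chr9:78175303-78175633 (mm10), with a GC content of 58.0%. Both stretches are in the sense of the RNA, 5′ to 3′, with T for U. In the first, bases 1 to 90 from chr9:78175544-78175633, capitals mark the 4-letter motif GATC, and in the second, bases 292 to 331 from chr9:78175303-78175342, they mark the last 3 bases.
Rn7sk start: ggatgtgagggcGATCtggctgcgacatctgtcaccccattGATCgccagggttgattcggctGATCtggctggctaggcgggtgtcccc
Rn7sk end: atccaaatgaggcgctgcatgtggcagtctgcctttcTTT

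HEXIM1 is known to recognise GAUC repeats in the first hairpin of the RNA, and LARP7 a run of U at its end. GATC, which reads the same on both strands, begins at bases 13, 42 and 64 of Rn7sk and at no other position in it. Among 139864 annotated transcripts of 90 bases or more, 21.3% held GATC at least once in their first 90 bases and 0.241% held it 3 times or more. The RNA ends in TTT, as do 3.08% of these transcripts. These are descriptions of the annotated sequence and do not measure binding.

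Rn7sk had the highest TPM of all genes in both libraries. It held 760367 expected counts in replicate 1 and 861450 in replicate 2, the second largest number of any gene in each. That was 3.22% of all expected counts on genes in replicate 1, with a 95% Wilson interval of 3.211 to 3.225. In replicate 2 the share was 5.49%, with an interval of 5.480 to 5.503. The intervals cover counting error only, and they were far apart, so the libraries differed by more than counting error. The level of Rn7sk was 226393 TPM in replicate 1 and 314711 in replicate 2, a mean of 270600 ± 62450 TPM (SD, n = 2). As a share of all TPM this was 22.6% in replicate 1 and 31.5% in replicate 2.

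The size of this level differed between quantifiers. The TPM bounds deposited with it, 216057 to 217417 in replicate 1 and 300070 to 301799 in replicate 2, surround a posterior mean and lie below the TPM itself. A second quantifier, run by the authors on the same reads, gave Rn7sk 66226.6 TPM in replicate 1 and 118988 in replicate 2. Its counts placed 2.73% of reads on Rn7sk in replicate 1 and 4.25% in replicate 2, so the quantifiers were closer in counts than in TPM. By TPM of the second quantifier Rn7sk ranked 6 in replicate 1 and 3 in replicate 2. The first quantifier used an effective length of 127.62 bases in replicate 1 and 115.84 bases in replicate 2, against the 331 bases of the RNA, and TPM is inversely proportional to it. Both quantifiers placed Rn7sk higher in replicate 2.

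The mouse genome holds many partial copies of 7SK. A total of 25 other annotated genes, all of the class misc_RNA, shared at least one stretch of 31 bases with Rn7sk, and 72.8% of the 31-base stretches of Rn7sk occurred in one of them. Together these 25 genes held 144.72 expected counts in replicate 1 and 34.79 in replicate 2. That was 0.019% of the Rn7sk count in replicate 1 and 0.00404% in replicate 2. The second quantifier gave them 1424.6 counts in replicate 1 and 2622.4 in replicate 2, which was 0.163% and 0.228% of its own Rn7sk counts. Which of these genes a shared read came from is uncertain, but their summed counts were under 1% of those of Rn7sk by either quantifier.

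The other parts of the 7SK particle were far lower. Larp7 (ENSMUSG00000027968.11, chr3:127536714-127553349) was the lowest of the 9 genes. It held 138 expected counts in replicate 1 and 85 in replicate 2, and its level was 2.80 TPM in replicate 1 and 2.03 in replicate 2 (mean 2.42 ± 0.54, SD, n = 2). In CPM, counts scaled to the total on genes, this was 5.84 in replicate 1, with a 95% Wilson interval of 4.943 to 6.899, and 5.42 in replicate 2, with one of 4.382 to 6.699, so the intervals of the libraries overlapped. Of all nuclear protein-coding genes, unexpressed ones included, 66.2% in replicate 1 and 66.1% in replicate 2 were lower. The median of those with 1 TPM or more in both libraries was 9.18 TPM in replicate 1 and 6.55 in replicate 2, above Larp7. A protein-coding gene, Gm12666, shares 486 stretches of 31 bases with Larp7, and it held 0 counts in both libraries by either quantifier. Reads from the shared stretches may have been assigned to Larp7, so no upper limit for Gm12666 follows.

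Mepce (ENSMUSG00000029726.16, chr5:137781906-137787655), which encodes the capping enzyme of the 7SK RNA, held 529 expected counts in replicate 1 and 344 in replicate 2. Its level was 7.16 TPM in replicate 1 and 5.0 in replicate 2 (mean 6.08 ± 1.53, SD, n = 2). Hexim1 (ENSMUSG00000048878.6, chr11:103116231-103119725), a gene of 1 exon for the inhibitor of P-TEFb, held 1168 expected counts in replicate 1 and 753 in replicate 2. Its level was 13.5 TPM in replicate 1 and 9.73 in replicate 2 (mean 11.6 ± 2.67, SD, n = 2). Hexim1 thus stood above Mepce, and Mepce above Larp7, with no overlap between their libraries.

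The kinase genes stood highest among the 8 protein-coding genes. Cdk9 (ENSMUSG00000009555.16, chr2:32705784-32713076), the catalytic subunit of P-TEFb, held 1876 expected counts in replicate 1 and 1156 in replicate 2. Its level was 52.4 TPM in replicate 1 and 37.8 in replicate 2 (mean 45.1 ± 10.4, SD, n = 2). In both libraries over 95% of nuclear protein-coding genes were lower, 95.6% in replicate 1 and 95.9% in replicate 2.

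Ccnt2 (ENSMUSG00000026349.14, chr1:127774164-127808061), which encodes cyclin T2, held 4567 expected counts in replicate 1 and 3263 in replicate 2. Its level was 45.6 TPM in replicate 1 and 35.3 in replicate 2 (mean 40.5 ± 7.26, SD, n = 2). Ccnt1 (ENSMUSG00000011960.12, chr15:98538689-98570923), which encodes cyclin T1, held 2670.13 expected counts in replicate 1 and 2036.23 in replicate 2. Its level was 26.6 TPM in replicate 1 and 23.2 in replicate 2 (mean 24.9 ± 2.40, SD, n = 2). Over all transcripts of each gene, Ccnt2 was 1.72 times Ccnt1 in replicate 1 and 1.52 times in replicate 2. Much of this cyclin RNA was assigned to transcripts not annotated as coding.

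The genes of the complexes that hold the polymerase stood below the kinase genes. Supt5 (ENSMUSG00000003435.9, chr7:28314891-28338746), which encodes the large subunit of DSIF, held 1531.71 expected counts in replicate 1 and 1033.23 in replicate 2. Its level was 18.6 TPM in replicate 1 and 14.8 in replicate 2 (mean 16.7 ± 2.63, SD, n = 2). Nelfb (ENSMUSG00000013465.19, chr2:25199712-25211489), which encodes a subunit of NELF, held 389 expected counts in replicate 1 and 259 in replicate 2. Its level was 7.71 TPM in replicate 1 and 4.99 in replicate 2 (mean 6.35 ± 1.92, SD, n = 2). Supt5 was above Nelfb in both libraries, by 2.41 times in replicate 1 and 2.98 times in replicate 2.

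**Figure D1:**
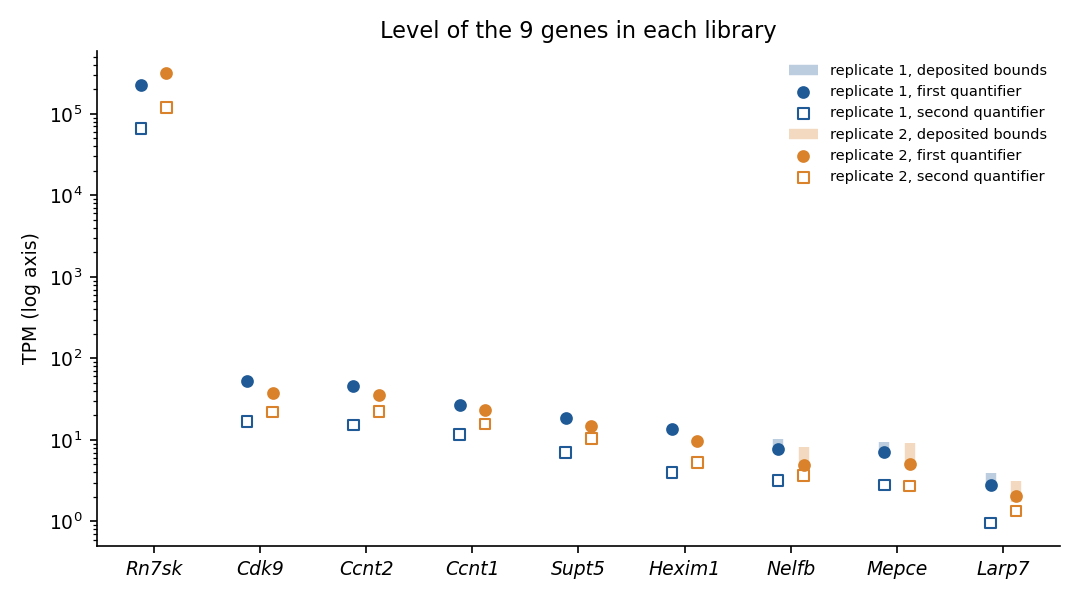
Level in TPM (log axis) of the 9 genes, ordered by mean, with replicate 1 left of replicate 2. Filled circles are the first quantifier, open squares the second, and pale bars the TPM bounds deposited for the first; Rn7sk lies at 226393 TPM in replicate 1 and 314711 in replicate 2, and every other gene at or below 52.4 TPM.

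By mean TPM the order was Rn7sk, Cdk9, Ccnt2, Ccnt1, Supt5, Hexim1, Nelfb, Mepce and Larp7. Of the 8 neighbouring pairs in this order, 6 did not overlap between libraries. The exceptions were Cdk9 with Ccnt2 and Nelfb with Mepce. Cdk9 was 1.15 times Ccnt2 in replicate 1 and 1.07 times in replicate 2, but by the second quantifier 1.09 times and 0.99 times. Nelfb was above Mepce in replicate 1, at 7.71 against 7.16 TPM, and level with it in replicate 2, at 4.99 against 5.0 TPM. All 9 genes reached 1 TPM in both libraries by the first quantifier, as did 39.9% of nuclear protein-coding genes, and 5 of the 9 reached 10 TPM. The share of all genes at 10 TPM was not taken. In replicate 2, 84.7% of nuclear protein-coding genes lay below Hexim1, which had 9.73 TPM.

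Ratios between members were taken within each library. Cdk9 was 3.88 times Hexim1 in both libraries, 18.7 times Larp7 in replicate 1 and 18.6 times Larp7 in replicate 2. The cyclin genes Ccnt1 and Ccnt2 together were 1.38 times Cdk9 in replicate 1 and 1.55 times in replicate 2. Rn7sk was 16770 times Hexim1 in replicate 1 and 32340 times in replicate 2, and 80850 times and 155000 times Larp7. By the second quantifier Rn7sk was 16720 times Hexim1 in replicate 1 and 22440 times in replicate 2, and 69540 times and 88430 times Larp7. By the same quantifier Mepce was 2.94 times Larp7 in replicate 1 and 2.02 times in replicate 2, against 2.56 times and 2.46 times by the first. In expected counts, which are not divided by length, the 8 protein-coding genes together held 0.0545% in replicate 1 and 0.0569% in replicate 2. For each count on them Rn7sk held 59.1 counts in replicate 1 and 96.5 in replicate 2. These ratios compare RNA and do not measure protein or how much of the kinase was bound.

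None of the 9 genes was over 2-fold apart between the libraries, against 8.43% of the 14038 genes that averaged at least 10 expected counts. The log2 ratio of expected counts, replicate 1 over replicate 2 after TMM scaling, was -0.77 for Rn7sk, and 14.8% of genes were farther from 0. For the 8 protein-coding genes it lay between -0.20 for Ccnt1 and 0.11 for Cdk9, with a median of 0.01. All 8 fell between the quartiles of nuclear protein-coding genes, which were -0.23 and 0.32 around a median of 0.04. The sign within so narrow a range was not stable to the scaling. With TMM 4 of the 8 were higher in replicate 1, with counts of the second quantifier 6, and with unscaled TPM all 8. The median nuclear protein-coding gene itself lay at 0.11 with counts of the second quantifier and at 0.45 with TPM.

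**Figure D2:**
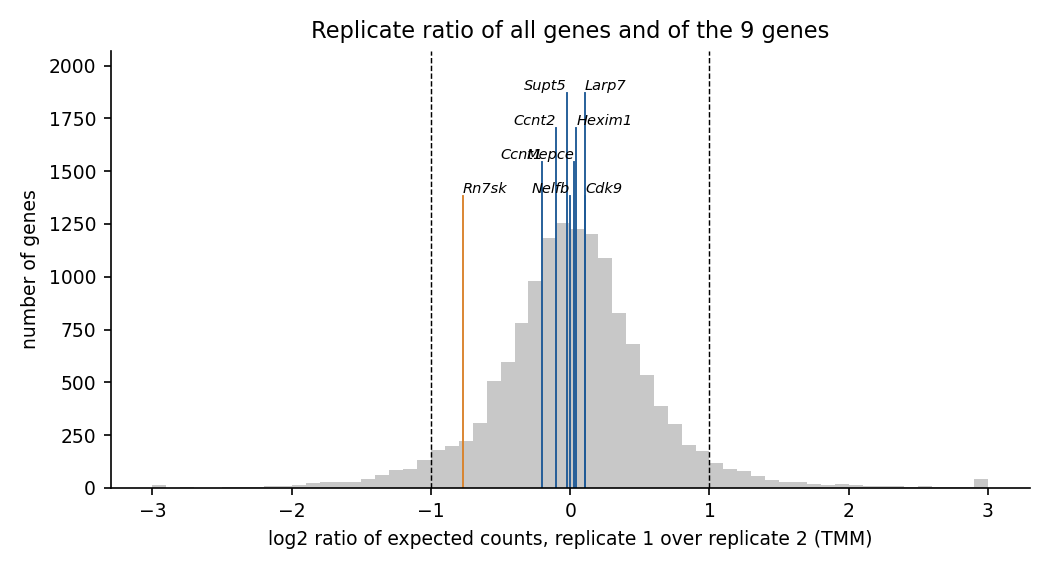
Number of genes (vertical axis) by log2 ratio of expected counts, replicate 1 over replicate 2 (horizontal axis), for 14038 genes, with values beyond the axis put in its last bars. Dashed lines mark 2-fold; coloured lines mark the 9 genes, of which 8 lie between -0.20 and 0.11 and Rn7sk at -0.77.

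Rn7sk stood lower in replicate 1 under each of the 5 scalings used, with log2 ratios between -0.77 (TMM) and -0.475 (TPM). Of these scalings, TMM, DESeq2 size factors and CPM use the same counts and gave almost equal ratios. Less the median of nuclear protein-coding genes under the same scaling, the ratios lay between -0.93 (TPM) and -0.61 (second quantifier). Other measures moved between the libraries as well. Mitochondrial protein-coding genes took 3.37% of expected counts in replicate 1 but 5.92% in replicate 2, and the amount of RNA used was 1 µg and 500 ng. Their part in the Rn7sk difference was not tested. Among 2267 genes with at least 1000 expected counts in both libraries, those with the log2 ratio of CPM nearest to that of Rn7sk (-0.77) were the pseudogene 6820431F20Rik (-0.78), Cd33 (-0.77) and Il1a (-0.78). This likeness rests on a single ratio between 2 libraries.

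Short RNAs that RNA polymerase III also makes did not share one ratio. Rpph1, the RNA of the processing enzyme RNase P, held 146551 expected counts in replicate 1 and 292212 in replicate 2 (0.620% and 1.86% of the total), a log2 ratio of -1.59. Rn7s1 and Rn7s2, the 7SL RNA of the signal recognition particle, had identical values of 140214 in replicate 1 and 81870.1 in replicate 2 (0.593% and 0.522%), a log2 ratio of 0.19. Their reads cannot be told apart.

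Rmrp, the RNA of RNase MRP, is annotated under 2 gene IDs that went opposite ways. ENSMUSG00000088088.1 held 68715.5 expected counts in replicate 1 and 89245.6 in replicate 2, a log2 ratio of -0.97. ENSMUSG00000115420.1 held 52908.5 and 6607.36, a log2 ratio of 2.41, so the division of reads between the IDs is uncertain. Of the 5 short-RNA gene rows with a mean of 10 or more counts, 2 were over 2-fold apart, Rpph1 and this Rmrp ID, against 8.43% of all genes. The first Rmrp ID lies wholly inside the second on the same strand, and Rn7s1 and Rn7s2 share their reads. These rows are therefore not 5 separate RNAs, and the ratio of 2.41 may reflect the division of reads. The vault RNA Vaultrc5 held 1 count in replicate 1 and 2 in replicate 2, on effective lengths of 3.97 and 2.2 bases. Few reads could be assigned to it at such lengths, and the second quantifier held 7 counts in replicate 1 and 16 in replicate 2. The Y RNAs Rny1 and Rny3 are listed at 0 with an effective length of 0 in both libraries, so that no read could be assigned to them and no upper limit follows. The second quantifier held 10 counts of Rny1 in replicate 1 and 3 in replicate 2, and 29 and 6 of Rny3. It gave Rny1 5.93 TPM in replicate 1 and 3.08 in replicate 2, and Rny3 17.3 TPM and 6.40 TPM.

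**Figure D3:**
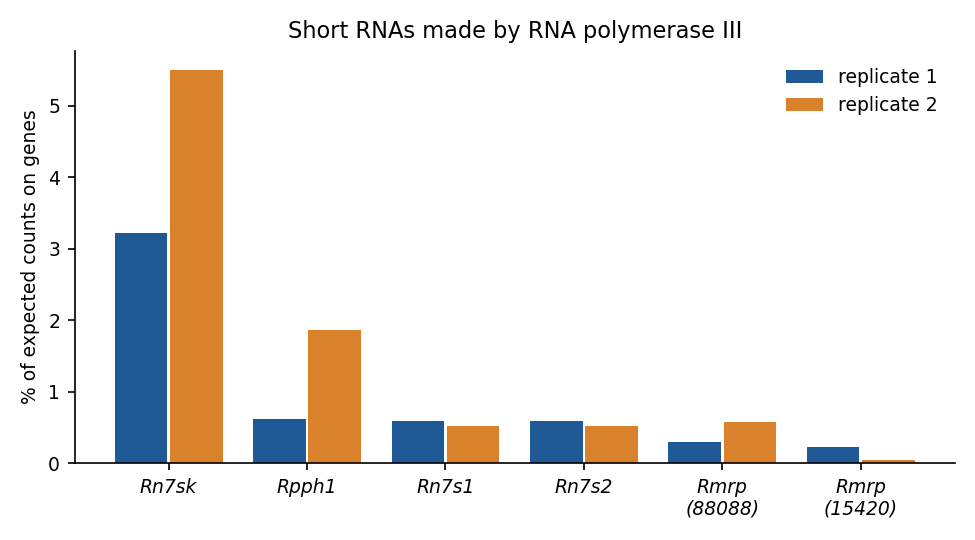
Share of expected counts on genes (percent) held by Rn7sk and by the other short RNAs of RNA polymerase III with more than 10 counts, with replicate 1 left of replicate 2; the 2 Rmrp IDs are marked by their last digits. Rn7sk holds 3.22% in replicate 1 and 5.49% in replicate 2, and Rpph1 follows at 0.620% and 1.86%.

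Genes for proteins that make and first bind 7SK were also examined. All 11 such genes on the list reached 1 TPM in both libraries by the first quantifier, though not all by the second, and 0 of 11 were over 2-fold apart. The backgrounds were 39.9% of nuclear protein-coding genes and 8.43% of genes, so a count of 0 in 11 is near the background. Ssb, whose product La binds the ends of new RNA polymerase III transcripts, had 21.3 TPM in replicate 1 and 19.4 in replicate 2. Bdp1, a subunit of the initiation factor TFIIIB, had 15.4 TPM in replicate 1 and 12.7 in replicate 2. Polr3a and Polr3b, the large subunits of the polymerase, had 6.81 and 5.02 TPM in replicate 1 and 3.70 and 3.13 TPM in replicate 2.

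Among subunits of SNAPc, which binds promoters of small nuclear RNAs, Snapc3 was highest, with 13.4 TPM in replicate 1 and 9.28 in replicate 2. Snapc5 had 4.02 and 3.27 TPM, Snapc4 3.75 and 3.39 TPM and Snapc1 2.16 and 1.64 TPM in replicates 1 and 2. Snapc2 had 1.23 TPM in replicate 1 and 1.85 in replicate 2, with a log2 ratio of -0.94 on 43 and 55 expected counts. Tbp, the TATA-binding protein, had 3.62 TPM in replicate 1 and 4.48 in replicate 2, with a log2 ratio of -0.52. Brf2, a TFIIIB subunit particular to promoters of the 7SK type, had 1.77 TPM in replicate 1 and 1.21 in replicate 2. By the second quantifier Snapc2 was below 1 TPM in both libraries, at 0.389 TPM in replicate 1 and 0.903 in replicate 2. Snapc1 (0.775 TPM) and Brf2 (0.852 TPM) were below it in replicate 1 only.

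Totals per gene did not show which RNA was present, since most of these genes are annotated with transcripts that do not encode the protein. Of the 8 protein-coding genes, 7 have several annotated transcripts and Hexim1 has 1. The median over those 7 of the share of TPM in coding transcripts was 72.7% in replicate 1 and 69.7% in replicate 2. Over 8773 nuclear protein-coding genes of 1 TPM or more, the median was 81.0% in replicate 1 and 78.8% in replicate 2. Unlike the 7, this background includes genes with 1 annotated transcript, so the medians are not over like sets. Mepce (95.8% in replicate 1 and 100% in replicate 2), Larp7 (94.3% and 82.3%) and Supt5 (78.7% and 78.1%) were mostly coding. The lowest shares were those of Ccnt2, at 29.9% and 25.7%, and Ccnt1, at 46.4% and 45.8%.

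The intron borders that retained-intron transcripts of 4 of the genes run across are shown because reads across them distinguish intron-holding from spliced RNA. In nuclear RNA such reads can come from a retained intron or from RNA not yet spliced, and which it was here was not tested. Of the 4 transcripts, only that of Nelfb holds a whole intron of the main coding transcript. Each border is shown as 30 bases in the sense of the gene, on mm10, with capitals at the first or last 2 bases of the intron. Coordinates, all on the minus strand, are chr15:98560179-98560208 for Ccnt1, chr2:25211084-25211113 for Nelfb, chr7:28325932-28325961 for Supt5 and chr2:32710556-32710585 for Cdk9.
Ccnt1 intron 4 start: acgaggagtgagGTgagtgagtgtttacac
Nelfb intron 1 start: gaacaatttcagGTgggcagaaggggccgg
Supt5 intron 11 start: gacattgctcagGTgggagtcgacggagca
Cdk9 intron 2 end: cctctttctcctccctAGttccccatcaca

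By TPM of the first quantifier Ccnt2 had the largest share of the 8 in transcripts annotated with a retained intron, 47.3% in replicate 1 and 50.8% in replicate 2. Of the 8773 nuclear protein-coding genes of 1 TPM or more, 91.8% had a lower mean share. The background medians were 7.99% in replicate 1 and 8.56% in replicate 2. The highest such transcript, of 1040 bases, runs on from exon 5 into intron 5 and carries 483 bases of that 2523-base intron. It had 12.3 TPM in replicate 1 and 8.30 in replicate 2, against 13.6 and 8.71 TPM for the main coding transcript of 4511 bases. A further 22.8% in replicate 1 and 23.6% in replicate 2 was in a processed transcript of 7640 bases that starts inside intron 5. In expected counts, where long transcripts weigh more, that transcript's class held 44.5% in replicate 1 and 44.8% in replicate 2, and the retained-intron class 21.7% and 26.5%. On that scale Nelfb had the larger retained-intron share, 28.6% in replicate 1 and 31.6% in replicate 2. By the second quantifier Ccnt2 had 52.9% in replicate 1 and 58.1% in replicate 2, and Ccnt1 was above it in replicate 1.

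For Nelfb the retained-intron share was 29.2% in replicate 1 against 35.3% in replicate 2, with a mean above that of 79.2% of the same 8773 genes. Its highest retained-intron transcript holds all 229 bases of intron 1 and had 1.27 TPM in replicate 1 and 1.25 in replicate 2. For Supt5 the share was 10.6% in replicate 1 against 14.3% in replicate 2, and for Cdk9 7.5% and 10.5%. Larp7 had 5.71% in replicate 1 and 17.7% in replicate 2, resting on 4.85 and 10.11 expected counts. Mepce had 4.19% in replicate 1, resting on 2.01 expected counts, and 0% in replicate 2.

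For Ccnt1 the division depended on the quantifier. By the first, 18.1% of TPM in replicate 1 and 14.7% in replicate 2 was in retained-intron transcripts, and 34.8% and 39.5% in the class of other transcripts. That class was a processed transcript of 683 bases with 115.87 expected counts in replicate 1 and 100.45 in replicate 2. By the second quantifier the retained-intron share was 56.9% in replicate 1 against 50.4% in replicate 2, and the coding share 31.3% and 37.5%. By expected counts of the first, 87.3% in replicate 1 and 88.4% in replicate 2 was coding, on a scale that is not divided by length; the coding transcript has 7397 bases. Ccnt2 stayed below 40% coding on all 3 scales, with 33.8% and 28.8% by expected counts and 27.6% and 21.5% by the second quantifier.

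By TPM of the first quantifier Cdk9 had the largest share of the 8 in transcripts annotated as targets of nonsense-mediated decay, 19.8% in each library. Supt5 had 10.7% in replicate 1 and 7.61% in replicate 2, and the median gene 0%. By expected counts Cdk9 had 10.6% in replicate 1 and 9.78% in replicate 2, and Supt5 10.7% and 4.06%. The main Cdk9 coding transcript, of 1733 bases and starting at position 32712784, had 27.1 TPM in replicate 1 and 12.7 in replicate 2. A coding transcript of 1565 bases that starts downstream of it, at 32712267, had 10.8 TPM in replicate 1 and 11.7 in replicate 2. The longer one took 51.6% of Cdk9 TPM in replicate 1 and 33.7% in replicate 2, while the log2 ratio of the whole gene was 0.11. The second quantifier gave it 8.97 TPM in replicate 1 and 8.36 in replicate 2, and the other 1.46 and 3.23 TPM. Cdk9 is known to be made in a longer and a shorter protein form from separate start sites; these values are estimates from shared exons and do not measure protein.

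**Figure D4:**
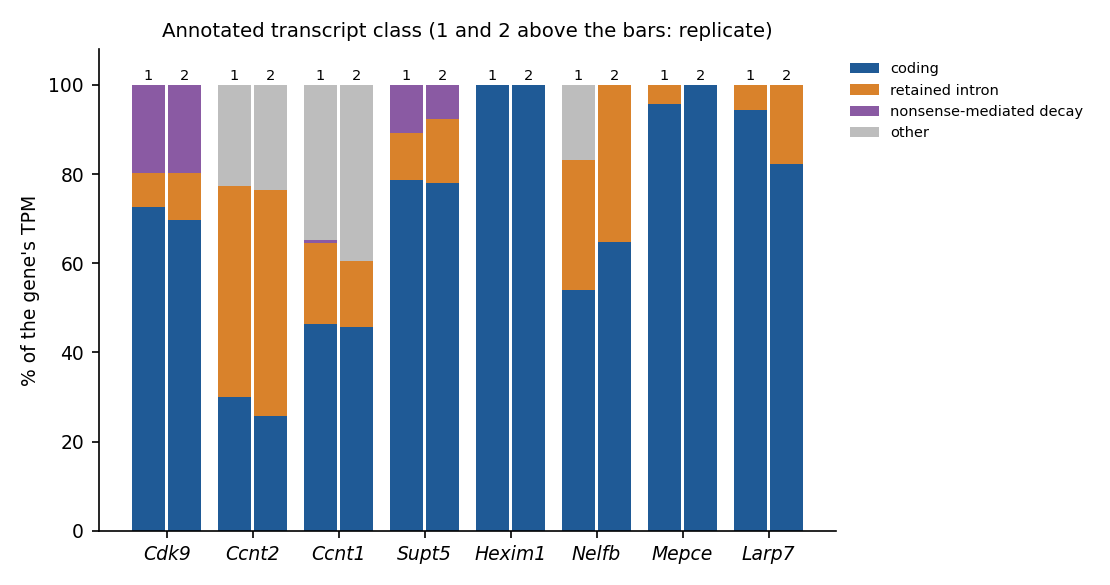
Share of each gene's TPM (percent) by annotated transcript class for the 8 protein-coding genes, with the replicate number above each bar and replicate 1 on the left. Hexim1 is 100% coding with its single transcript, and Ccnt2 has the least coding RNA, 29.9% in replicate 1 and 25.7% in replicate 2.

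Some of the 9 overlap other genes, and use of strand in the counting is not given in the sources used here. The antisense gene 9330020H09Rik overlaps Ccnt1 by 2260 bases and held 37.87 expected counts in replicate 1 and 39.77 in replicate 2 (0.74 and 0.87 TPM). The antisense gene Gm44709 overlaps Supt5 by 3976 bases and held 108.29 expected counts in replicate 1 and 46.77 in replicate 2. Its level was 17.1 TPM in replicate 1 and 8.62 in replicate 2, against 18.6 and 14.8 TPM for Supt5. These overlaps are of whole gene spans, introns included. In their transcripts 9330020H09Rik shares 638 stretches of 31 bases with Ccnt1, and Gm44709 shares 377 with Supt5. Without strand, reads from such shared stretches cannot be told apart. Counting either strand, 1182 other genes shared at least 1 stretch of 31 bases with Ccnt1, 1773 with Supt5 and 606 with Cdk9. Of their own stretches, 9.76% for Ccnt1, 9.26% for Supt5 and 3.47% for Cdk9 occurred in another gene. For Larp7 it was 20.1%. The microRNA genes Mir302a, Mir302b, Mir302c, Mir302d and Mir367 inside Larp7, and Mir2861 and Mir3960 inside Cdk9, are listed at 0 in both libraries. So is the snRNA gene Gm22572, which overlaps Nelfb by 105 bases. The effective length of all of these is 0 too, so no limit on their level follows.

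The quantifiers were also compared. With TPM of each rescaled over nuclear protein-coding genes, 0 of the 8 were over 2-fold apart in both libraries, against 21.2% of 13016 genes. The log2 ratio, first quantifier over second, lay between -0.18 for Ccnt1 and 0.41 for Hexim1 in replicate 1, and between -0.04 for Nelfb and 0.39 for Mepce in replicate 2. Unscaled, the second quantifier gave each of them a lower TPM, for example 16.7 TPM in replicate 1 and 21.9 in replicate 2 for Cdk9. It gave Larp7 0.952 TPM in replicate 1 and 1.35 in replicate 2.

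A wider list of 39 genes of transcription elongation was described beside the 9. Of these, 37 were at or above 1 TPM in both libraries and 16 at or above 10 TPM, and 0 of 37 were over 2-fold apart between libraries. Over all genes, 39.9% of nuclear protein-coding genes reached 1 TPM in both and 8.43% of genes were over 2-fold apart. The share of all genes at 10 TPM was not taken. Over all 39 listed genes the median log2 ratio was 0.06, against 0.04 for nuclear protein-coding genes. Of the 39, 22 were higher in replicate 1. The exceptions in level were Ell3, with 0.16 TPM in replicate 1 and 0.11 in replicate 2, and Eaf2, with 0.10 and 0.07 TPM. Both belong to families, ELL and EAF, of which other members were well above 1 TPM. The second quantifier gave Eaf2 0.416 TPM in replicate 1 and 0.603 in replicate 2.

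Among proteins that bind 7SK or help free P-TEFb from it, 9 of 9 reached 1 TPM. Hnrnpa2b1 had 301 TPM in replicate 1 and 243 in replicate 2, the highest of the list. The splicing factor gene Srsf2 had 55.4 TPM in replicate 1 and 52.9 in replicate 2, and Hnrnpa1 49.2 TPM and 36.1 TPM. Products of the hnRNP genes are known to take up 7SK when it has released P-TEFb. Hexim2, the paralog of Hexim1, was lower, at 2.86 TPM in replicate 1 and 2.11 in replicate 2. Hexim1 was 4.72 times Hexim2 in replicate 1 and 4.61 times in replicate 2, but 1.47 times and 1.74 times by the second quantifier. Hexim2 and Eaf2 were the 2 of 38 listed genes compared that were over 2-fold apart between quantifiers, against 21.2% of nuclear protein-coding genes.

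The other subunits of NELF and DSIF all reached 1 TPM in both libraries. The median nuclear protein-coding gene of 1 TPM or more stood at 9.18 TPM in replicate 1 and 6.55 in replicate 2. Supt4a, the partner of Supt5, had 8.78 TPM in replicate 1 and 5.40 in replicate 2. Nelfcd had 8.33 TPM in replicate 1 and 4.70 in replicate 2, and Nelfe 7.57 and 3.95 TPM. None of the 4 reached 10 TPM in both libraries, and Supt5 stood above each of them. All 4 were higher in replicate 1, with a median log2 ratio of 0.29, on 63 to 117 expected counts in replicate 2. The median nuclear protein-coding gene was also higher in replicate 1, at 0.04, and the upper quartile of 0.32 lay above 0.29.

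Of 9 genes that bring P-TEFb to genes, 7 reached 1 TPM. Ell2, an elongation factor of the super elongation complex, had 97.9 TPM in each library, above Cdk9. Aff1, a scaffold of that complex, had 52.3 TPM in replicate 1 and 32.8 in replicate 2. Aff4, a further scaffold of it, had 22.3 TPM in replicate 1 and 17.1 in replicate 2. Of the polymerase genes, Polr2a, which encodes the largest subunit, had 29.0 TPM in replicate 1 and 23.2 in replicate 2. Polr2m had 14.8 and 7.14 TPM in replicates 1 and 2, and Polr2b 7.47 and 4.26 TPM.

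All 8 elongation factor genes and all 6 genes of other transcription kinases reached 1 TPM. Paf1 had 29.0 TPM in replicate 1 and 24.7 in replicate 2, Supt6 23.8 and 16.3 TPM, and Tcea1, which rescues stalled polymerase, 19.4 and 13.2 TPM. Cdk12, a later kinase of the polymerase tail, had 39.2 TPM in replicate 1 and 45.2 in replicate 2. Its log2 ratio of expected counts of -0.67 was the farthest from 0 of the 37. Cdk13 had 22.4 TPM in replicate 1 and 14.8 in replicate 2, and their cyclin gene Ccnk 11.2 and 10.7 TPM. Cdk9 stood above Cdk13 and Ccnk in both libraries, and above Cdk12 in replicate 1 but not in replicate 2.

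**Figure D5:**
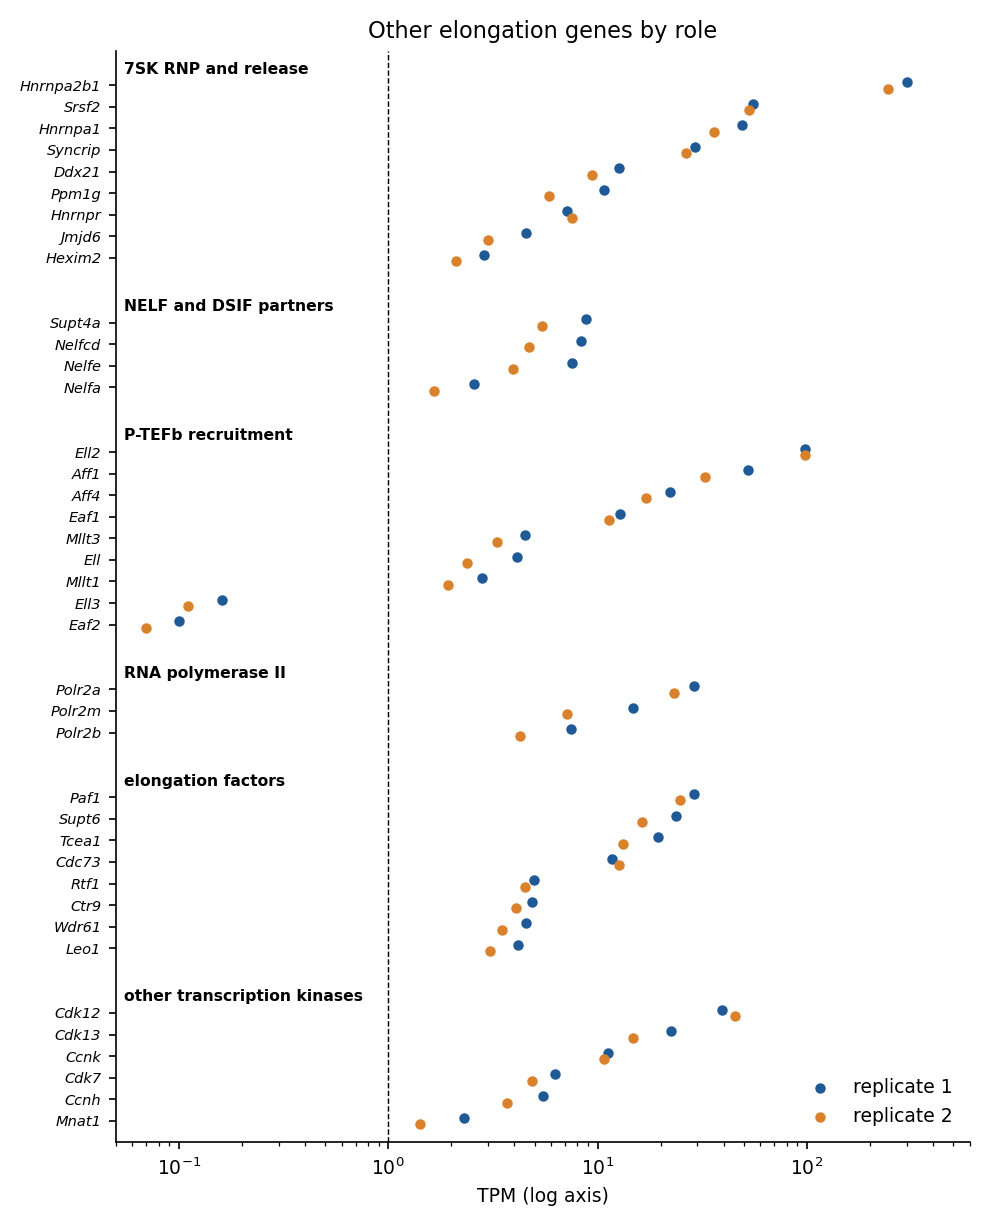
Level in TPM (log axis) of the 39 other elongation genes, grouped by role and ordered by mean within each, with replicate 1 above replicate 2 on each line and a dashed line at 1 TPM. Hnrnpa2b1 is highest at 301 TPM in replicate 1 and 243 in replicate 2, and Ell3 and Eaf2 lie below 1 TPM.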

How the data were processed

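Per the readme files deposited with the tables, reads were assigned on mm10 with GENCODE M21 annotation. Aligner, tool versions and strand use: not given in the sources used here. The authors deposited expected counts, TPM, posterior mean TPM and TPM bounds of unstated level in the format of RSEM, and estimated counts and TPM per transcript in kallisto format. The kallisto-format values, here the second quantifier, were summed per gene; 86 of 55536 gene rows have none. Rows that name no gene were left out of totals (1.19% of counts in replicate 1 and 0.215% in replicate 2).

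For ratios, expected counts were rounded, offset by 0.5 and scaled by TMM in edgeR 4.0.16 (R 4.3.3), with DESeq2 1.42.0 size factors as an alternative. A gene was called apart where its ratio passed 2-fold. Other steps used Python 3.11.15, pandas 2.3.3 and scipy 1.17.1. With 1 group there is no test and no p-value. TPM makes values of RNAs barely longer than a fragment large and unstable. Sequences come from GENCODE M21 transcripts and were compared with all other transcripts in stretches of 31 bases.

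Genes named were all 9 members; in each role of the wider list the 3 highest and those below 1 TPM in both libraries; the RNA polymerase III list; and for likeness to Rn7sk the 3 nearest ratios. Members and lists were chosen with earlier results of these data known. Hexim2, named for its relation to Hexim1, was chosen after its values were seen. Alternatives included the second quantifier, posterior means, other floors, scalings and pseudocounts (0.1 and 1), and each library alone. A gene of the wider list and a border sequence are not reported here.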

Additional observations from a re-analysis of the deposited data

How the results depend on the processing

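No paired analysis was possible because the series holds 1 group. Each library alone kept 7 or 8 of the 8 neighbouring pairs in the order of TPM, gave Rn7sk 3.22% to 5.49% of expected counts and gave a median coding share of 69.7% to 72.7% over the 7 genes with several transcripts. That median was 85.4% by expected counts and 60.9% by the second quantifier. With a floor of 10 TPM, 5 of the 9 genes and 16 of the 39 listed genes passed, with no share of all genes taken at that floor. By the second quantifier 8 and 35 passed 1 TPM, and Larp7 did not. With unscaled TPM 1 listed gene, Polr2m, was over 2-fold apart, as were 13.1% of all genes. No gene of the 9 was, under any of the scalings run, and 29 of 36 log2 ratios kept their sign. Adding the 25 genes that share sequence with Rn7sk, an alternative chosen after seeing the data, left its mean share at 4.36%. Their few counts could not have moved it, so this does not test how shared reads were assigned. With 2 libraries an SD is imprecise, and transcript shares of Larp7 and Mepce rest on few reads.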
